A study of Mus musculus with 4 samples.

Results

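p53, the tumour suppressor encoded by Trp53, is a transcription factor that switches on genes of cell cycle arrest, DNA repair, metabolism and cell death when a cell is damaged or stressed. In unstressed cells the ubiquitin ligase Mdm2 and its relative Mdm4 keep p53 low, and since Mdm2 is itself a p53 target, the pair forms a feedback loop. p53 is regulated mainly as a protein, which RNA arrays do not measure, so its activity is usually read from its targets. Yy1, a zinc finger transcription factor, is known from cultured cells to bind Mdm2 and p53 and to promote the degradation of p53. The genes described here are 40 p53 target genes, Trp53 and its regulators included, chosen by name and matched to the probe sets of the array that carry a single gene symbol. Of the 40, 38 had such a probe set, out of 18193 genes on the array, and they had 77 probe sets between them. Trp53 itself and the stress hormone gene Gdf15 were not analysed here.

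The arrays compared small intestinal epithelium of mouse embryos at E15.5, counted in days of development, when the gut forms villi, with 2 Affymetrix Mouse430_2 arrays for each of 2 genotypes. The control samples, labelled WT, carried floxed Yy1 alleles (YY1f/f) and no Cre, and came from littermates of the knockouts. The knockout samples, labelled Yy1_KO, carried the same floxed alleles together with Shh-Cre (Yy1f/f; Shh-Cre), in which the Shh locus, active in gut endoderm, makes the Cre recombinase. Every sample held cells selected with magnets for Epcam, an epithelial surface protein, from gut taken from stomach to caecum, and pooled up to 2 embryos. Because no control carried Cre, what the Cre allele does and what Yy1 loss does cannot be told apart. Values are log2 intensities after GCRMA, and each change is the Yy1_KO mean minus the WT mean with its standard error (SE) from limma.

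On the brightest Yy1 probe set the log2 values were 8.79 and 8.82 in WT and 7.27 and 6.81 in Yy1_KO, a change of -1.77 (SE 0.17, limma adjusted p = 0.00209), although without WT 2 that p was 0.0504. Of 10 general epithelium markers, Epcam among them, all were bright enough to be tested. In Yy1_KO 3 were higher and 3 lower, with changes from -1.13 to 0.92. The log2 of their summed intensities, in which the brightest markers weigh most, was 13.3 on both WT arrays and 13.1 on both Yy1_KO arrays. Genes of other cells were higher in Yy1_KO: 8 of 8 tested mesenchyme markers, with Twist1 at the lowest value of the arrays, 6 of 6 of smooth muscle, 5 of 5 of leukocytes, with Cd14 at the lowest value, and 2 of 2 of erythroid cells, with Hba-a1 at the lowest value. Of these, 3 mesenchyme, 1 smooth muscle, 3 leukocyte and 1 erythroid marker lay under the filter described below on both WT arrays and could pass only as rises. Such log2 levels of summed intensities ran from 9.29 to 9.59 in WT and from 11.2 to 11.3 in Yy1_KO for mesenchyme. For smooth muscle these levels ran from 7.64 to 8.33 in WT and were 11.2 on both Yy1_KO arrays. They were 6.31 to 6.41 and 7.91 to 8.17 for leukocytes, 6.16 to 6.51 and 9.83 to 10.0 for erythroid cells, and 11.04 to 11.05 and 11.8 to 12.1 for pancreas and liver, of whose 5 tested markers 3 rose and 1 fell, with Alb at the lowest value. No marker of endothelium (4.72 to 4.75 and 4.76 to 4.78) or of enteric neurons and glia (4.83 to 5.01 and 5.34 to 5.68) was bright enough, and 4 of 5 endothelial ones lay at the lowest value. All 8 enterocyte markers fell, from summed levels of 13.1 to 13.5 down to 9.77 to 10.0. Of these 8, 2 lay under the filter on both Yy1_KO arrays and could pass only as falls. In such bulk samples, fewer cells of a type and less RNA per cell cannot be told apart.

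Most of the tested p53 target genes were higher in the Yy1_KO samples, and the rises ran through the feedback, arrest and repair genes and parts of the metabolic and death genes. Of the 31 that were bright enough to be tested, 23 rose, 1 fell and 7 did not pass, at an adjusted p under 0.05. Over all 8626 genes tested, 17.9% rose and 21.7% fell. Of the 31, 15 rose at least 2-fold, against 5.94% of all genes, and none fell 2-fold, against 7.19%. The median log2 change of the tested p53 target genes was 0.98, against -0.03 over all tested genes, and their changes ran from -0.60 to 2.83. The list was chosen with earlier results of these arrays known, so its direction is a description and not independent evidence.

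A gene was tested when its log2 value reached 4 on at least 2 arrays, which for Eda2r was met only on the Yy1_KO arrays, so that it could pass only as a rise. Without Eda2r, 22 of 30 rose and the median was 0.90. Sesn2 and Polk, counted among those 22, reached 4 in WT only on WT 2, so their test too needed a Yy1_KO array. When the brightest probe set of each of the 38 genes was taken with no filter and no test, both Yy1_KO arrays lay above both WT arrays in 28 and below both in 3. Over all genes with a probe set, those shares were 24.4% and 22.3%. Among the 31 tested, 25 had both Yy1_KO arrays above both WT arrays, against 35.4% of all tested genes. The median over the 38 was 0.79, and that over all 18193 genes was 0.

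**Figure D1:**
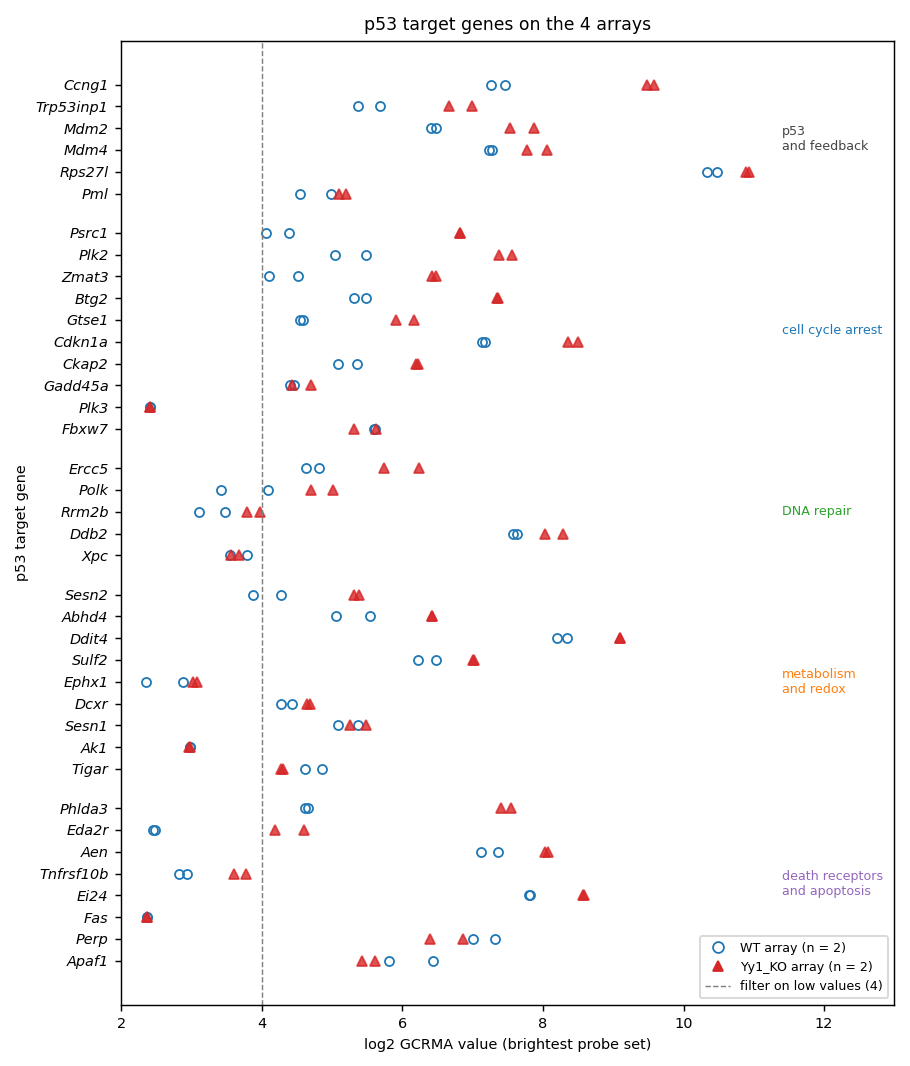
Log2 GCRMA values (x axis) of the brightest probe set of each of 38 p53 target genes (rows, grouped by role) on the 2 WT arrays (open circles) and the 2 Yy1_KO arrays (triangles), with the filter on low values at 4 (dashed line). In 28 rows both triangles lie to the right of both circles, in 3 rows (Tigar, Perp and Apaf1) to the left.

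How many genes passed depended on each of the arrays. The number of rises was 16 without WT 1, 14 without WT 2, 16 without Yy1_KO 1 and 13 without Yy1_KO 2, while the share of all genes that rose dropped to 6.23%, 4.09%, 9.59% and 6.17%. Phlda3, Psrc1, Plk2, Ccng1, Zmat3, Btg2, Eda2r, Gtse1 and Cdkn1a are the 9 genes that rose whichever array was left out. With all probe sets tested and no filter, limma called 1 p53 target gene higher, Ei24, and 39 genes higher in all.

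Ordered by the size of the change, Phlda3 (2.83 ± 0.11 SE) and Psrc1 (2.59 ± 0.14) came first. They were followed by Plk2, Ccng1, Zmat3, Btg2 and Eda2r, whose changes lay between 1.93 and 2.20 and did not differ from one another beyond their errors. The only gap between neighbours that exceeded 2 of its standard errors was that between Eda2r and Gtse1 (1.47 ± 0.13). That order is not firm either, since Eda2r lay near the lowest value in WT, and with an offset of 16 added before log2 its change was 0.79, against 1.04 for Gtse1. From Trp53inp1 (1.30) down to Polk (1.09) the order of 7 genes was not resolved.

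**Figure D2:**
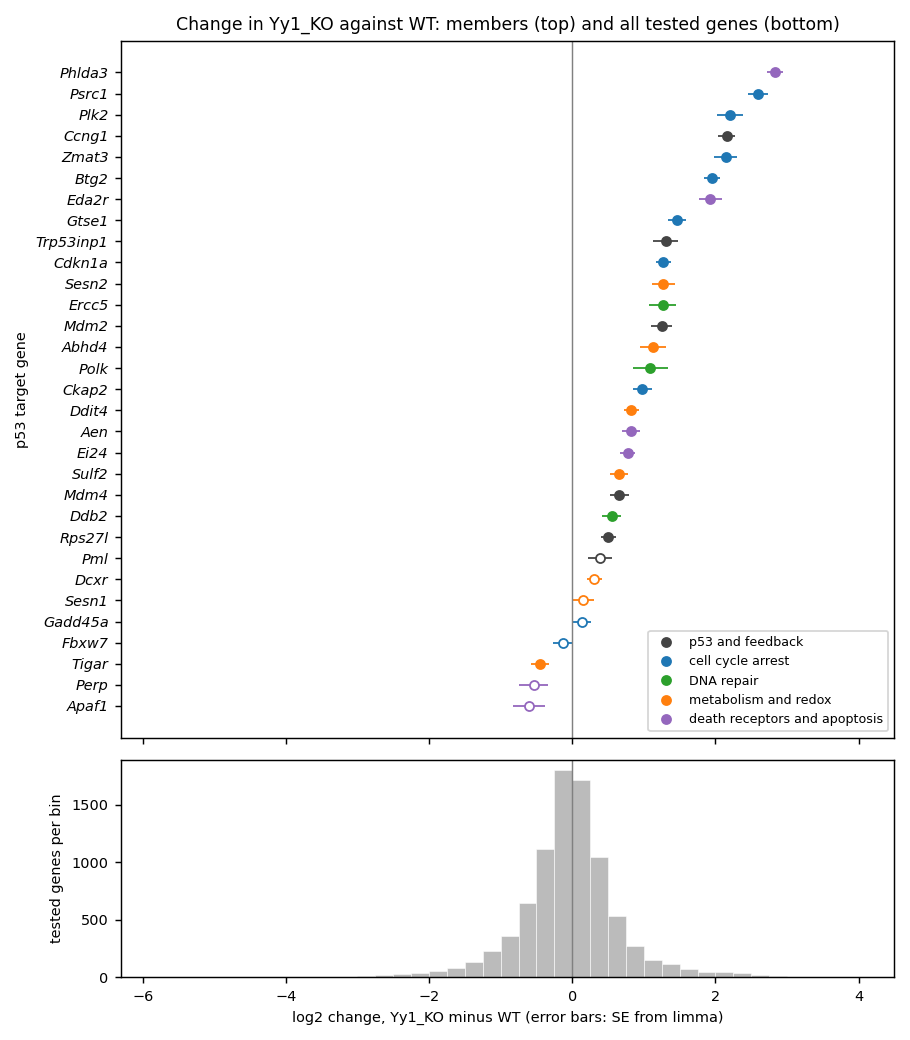
Top, log2 change in Yy1_KO against WT with its SE for the 31 tested p53 target genes, in order of size and coloured by role (filled points, adjusted p under 0.05; open points, not passed). Bottom, number of tested genes per bin of 0.25 in the same change over all 8626 genes, most of which lie near 0, whereas 15 p53 target genes rose at least 2-fold.

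p53 binds DNA at pairs of a short half-site. RefSeq promoter windows (mouse build GRCm38.p6), which run from 250 bases before to 50 after a start, were at hand for 33 of the 40 genes. A half-site without mismatch stood in the windows of 14 of them (42.4%), against 9.55% of 27025 genes. Trp53, which was not analysed on the arrays, is among the 14. Because that half-site reads the same on both strands, a match has no strand. A pair of half-sites at most 13 bases apart, with up to 1 mismatch in each, stood in 6 (18.2%), against 7.68% of all genes. The 33 genes were chosen by name as p53 targets, so both shares describe the list and are not independent evidence. Matches were not limited to the genes that rose, since Gadd45a, Pml and Sesn1 hold one too. Genes may carry p53 sites outside such windows, so a window without a match says only that these letters are not in it. The motif GCCATNTT, read on both strands as a core of Yy1 sites, stood in the window of 1 of the 33, Polk, against 6.96% of all genes.

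The stretches below show the matches before the starts of 5 genes that rose and of 2 that did not pass, for comparison, 5′ to 3′ on the strand of the gene. Capitals mark half-sites without mismatch and the half-sites with 1 mismatch paired with them.
Cdkn1a: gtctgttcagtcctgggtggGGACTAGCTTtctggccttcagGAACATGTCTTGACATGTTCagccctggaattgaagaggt
Ccng1: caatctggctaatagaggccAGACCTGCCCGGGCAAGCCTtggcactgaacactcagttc
Mdm2: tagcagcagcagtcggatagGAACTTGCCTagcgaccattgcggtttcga
Ckap2: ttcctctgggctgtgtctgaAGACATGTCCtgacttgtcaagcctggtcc
Ei24: ccagctgccccgtgcggcccGGGCATGCCC
Gadd45a: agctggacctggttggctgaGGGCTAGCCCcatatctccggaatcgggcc
Pml: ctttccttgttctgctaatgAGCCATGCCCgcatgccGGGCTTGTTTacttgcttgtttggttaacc
They lie at chr17:29090886-29090967 on the plus strand (Cdkn1a) and, all on the minus strand, at chr11:40755442-40755501 (Ccng1), chr10:117710915-117710964 (Mdm2), chr8:22185993-22186042 (Ckap2), chr9:36797335-36797364 (Ei24), chr6:67037418-67037467 (Gadd45a) and chr9:58249901-58249967 (Pml). In Cdkn1a, which has several starts, the capitals begin 73 bases before the most upstream one and hold half-sites with spacers of 12 and 0 bases. In Ccng1 they begin 195 bases before the start, as 2 half-sites with no spacer.

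Among the genes that act on p53 in feedback, 5 of 6 tested rose and none fell. The shares to set beside the counts of this and the following groups are 17.9% of all tested genes higher and 21.7% lower. Mdm2, the ubiquitin ligase that marks p53 for degradation, had log2 values of 6.41 and 6.48 in WT and 7.53 and 7.87 in Yy1_KO on its brightest probe set. This was a rise of 1.25 (SE 0.14, adjusted p = 0.00334), or 2.38-fold. Both Yy1_KO arrays lay above both WT arrays, also on its other probe sets, where it rose by 0.87 and 1.65, while without WT 2 the call on the brightest ended (adjusted p = 0.0561). Mdm4, the relative that blocks p53's activation domain, stood at 7.24 and 7.27 in WT and at 7.77 and 8.06 in Yy1_KO, a smaller rise of 0.66 (SE 0.13, adjusted p = 0.0157). Its groups were apart as well, yet it passed only in the fit without Yy1_KO 1, with adjusted p from 0.0733 to 0.108 in the other 3 fits that left out an array.

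Ccng1, a cyclin that recruits a phosphatase to Mdm2, had 7.27 and 7.47 in WT and 9.47 and 9.57 in Yy1_KO. It rose 4.46-fold (log2 2.16, SE 0.12, adjusted p = 0.000743), and its 3 probe sets put the rise between 1.92 and 2.35. Trp53inp1, a stress protein that promotes the action of p53, was at 5.36 and 5.68 in WT and at 6.99 and 6.66 in Yy1_KO, a rise of 1.30 (SE 0.17, adjusted p = 0.00468) that lost its call only without WT 1 (0.0515). In both genes the groups were apart. Rps27l, a ribosomal protein relative that binds Mdm2, rose by 0.51 (adjusted p = 0.0195) from 10.34 and 10.48 to 10.89 and 10.94, and lost its call in each fit without 1 array (adjusted p from 0.0767 to 0.102). Its probe sets may also read its near copy Rps27, which was not tested. Pml, the scaffold of nuclear bodies that hold p53, had 4.98 and 4.54 against 5.20 and 5.10 (change 0.39, adjusted p = 0.127). The WT arrays differed by more than that change.

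In the group listed as cell cycle arrest, which also holds the spindle and microtubule genes Psrc1, Gtse1 and Ckap2, 7 of 9 tested rose and none fell. Of the 15 rises of at least 2-fold, 6 were in this group. Cdkn1a, the p21 inhibitor of cyclin-dependent kinases and the best known p53 target, had 7.14 and 7.17 in WT and 8.36 and 8.50 in Yy1_KO. It rose 2.42-fold (log2 1.27, SE 0.11, adjusted p = 0.00154), and by 1.48 on its other probe set. The gap between genotypes was many times that between arrays of one genotype. Btg2, an antiproliferative cofactor of mRNA deadenylation, went from 5.49 and 5.31 to 7.34 and 7.36, a rise of 1.95 (SE 0.11, adjusted p = 0.000804), with 2.16 on its other probe set. Plk2, a polo-like kinase of centrioles, rose from 5.48 and 5.04 to 7.38 and 7.55 (log2 2.20, SE 0.18, adjusted p = 0.00135). In both genes every Yy1_KO value lay over 1 log2 unit above the WT values. The related kinase gene Plk3 lay at 2.41 on every array, next to the lowest value of the table (2.36), and was not tested.

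Psrc1, a microtubule protein of the mitotic spindle, had the largest rise of the group listed as cell cycle arrest. It was dim in WT (4.06 and 4.38) and stood at 6.82 and 6.81 in Yy1_KO, a rise of 2.59 (SE 0.14, adjusted p = 0.000738), or 6.04-fold. A further tested probe set gave 2.72, but it reached 4 in WT only on WT 1, so its test needed a Yy1_KO array. Zmat3, an RNA-binding zinc finger protein, rose by 2.14 (SE 0.16, adjusted p = 0.00119) from 4.11 and 4.52 to 6.43 and 6.48. Gtse1, a microtubule protein that restrains p53 in G2 phase, rose by 1.47 (SE 0.13, adjusted p = 0.00162) from 4.59 and 4.55 to 5.91 and 6.16. Ckap2, also a spindle protein, rose by 0.98 (SE 0.13, adjusted p = 0.00468) from 5.36 and 5.09 to 6.19 and 6.22. In WT these 4 genes all lay between 4.06 and 5.36, not far above the filter. Of the 4 only Ckap2 lost its call with an array left out, except WT 1 (adjusted p from 0.0504 to 0.0610).

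In contrast to these, Gadd45a, a growth arrest gene that binds cyclin-dependent kinase and Pcna, overlapped between genotypes. It had 4.40 and 4.45 in WT and 4.43 and 4.70 in Yy1_KO (change 0.14, SE 0.13, adjusted p = 0.443). Fbxw7, the substrate receptor of a ubiquitin ligase for cyclin E, had 5.59 and 5.60 against 5.63 and 5.32 (change -0.13, adjusted p = 0.503). Its sign was the opposite on its other tested probe set (0.12) and without Yy1_KO 2 (0.03), so it has no direction here.

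Of the DNA repair genes, 3 of 5 were bright enough, and each of those 3 rose. Ercc5, the endonuclease that cuts beside bulky lesions, had 4.62 and 4.82 in WT and 5.73 and 6.23 in Yy1_KO (log2 1.26, SE 0.19, adjusted p = 0.00678). It missed the threshold without WT 1 (0.0740) or WT 2 (0.0715). Polk, a polymerase that copies past damaged bases, had 3.42 and 4.09 against 4.69 and 5.01 (log2 1.09, SE 0.25, adjusted p = 0.0219). It passed only without WT 2, with adjusted p from 0.0863 to 0.167 in the other fits that left out an array, and its WT arrays differed by more than those of any other p53 target gene. Ddb2, a sensor of ultraviolet damage, rose by 0.55 (SE 0.13, adjusted p = 0.0244) from 7.63 and 7.58 to 8.02 and 8.28, while its other tested probe set had a change of 0.43 that did not pass (adjusted p = 0.0881). Ddb2 passed only in the fit without Yy1_KO 1, with adjusted p from 0.0990 to 0.145 in the others.

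The other repair genes were dim. Rrm2b, the p53-induced subunit of ribonucleotide reductase, had 3.11 and 3.48 in WT and 3.98 and 3.78 in Yy1_KO on the brightest of its 4 probe sets. On all 4 the Yy1_KO arrays lay above the WT arrays, by 0.09 to 0.59, without a test. Xpc, the partner of Ddb2 in damage recognition, had 3.54 and 3.78 against 3.57 and 3.68, which overlap.

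Metabolic and redox genes split, with 4 of 7 tested higher and 1 lower. Sesn2, a sestrin that restrains mTORC1 and supports antioxidant defence, had 3.88 and 4.27 in WT and 5.38 and 5.31 in Yy1_KO. It rose by 1.27 (SE 0.16, adjusted p = 0.00389), and by 0.81 on its other probe set, although it missed the threshold without Yy1_KO 1 (adjusted p = 0.0531) or Yy1_KO 2 (0.0588). Its relative Sesn1 had 5.08 and 5.37 against 5.48 and 5.26 (change 0.15, SE 0.15, adjusted p = 0.473), with overlapping groups on every probe set. Ddit4, an mTORC1 inhibitor that is also induced by hypoxia, rose by 0.82 (SE 0.11, adjusted p = 0.00448) from 8.21 and 8.34 to 9.09 and 9.10, and missed the threshold only without Yy1_KO 2 (adjusted p = 0.0516).

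Abhd4, a phospholipid hydrolase, rose by 1.13 (SE 0.18, adjusted p = 0.00802) from 5.05 and 5.54 to 6.43 and 6.42. Sulf2, an enzyme that trims sulfate groups from heparan sulfate outside the cell, rose by 0.66 (SE 0.13, adjusted p = 0.0141), from 6.22 and 6.48 to 7.02 and 7.0. It passed on 2 of its 3 probe sets and in none of the fits that left out an array (adjusted p from 0.0538 to 0.0959). Abhd4 did not pass without either Yy1_KO array (0.0757 and 0.0872). Tigar, a phosphatase that lowers glycolytic flux, was the only p53 target gene that fell. It had 4.62 and 4.85 in WT and 4.30 and 4.27 in Yy1_KO, a change of -0.45 (SE 0.12, adjusted p = 0.0367), with -0.46 on its other tested probe set. The groups were apart, but the call was lost whichever array was left out (adjusted p from 0.0658 to 0.159).

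Dcxr, a carbonyl reductase, had 4.27 and 4.42 in WT and 4.64 and 4.68 in Yy1_KO (change 0.31, adjusted p = 0.0781). The epoxide hydrolase gene Ephx1 (2.36 to 3.08 over the 4 arrays) and the adenylate kinase gene Ak1 (2.96 to 2.98) were too dim to test.

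Of the death genes, 4 of 6 tested rose and none fell. Phlda3, whose lipid-binding domain competes with the survival kinase Akt at membranes, had 4.66 and 4.62 in WT and 7.40 and 7.54 in Yy1_KO. This was the largest change of the 31 tested p53 target genes (log2 2.83, SE 0.11, adjusted p = 0.000686). Eda2r, a receptor of the tumour necrosis factor family for the ligand ectodysplasin A2, lay near the lowest value of the arrays in WT (2.45 and 2.48) and at 4.60 and 4.19 in Yy1_KO. Its change of 1.93 (SE 0.16, adjusted p = 0.00145) therefore depends on that lowest value. The death receptors Fas, at 2.36 on every array, and Tnfrsf10b, the mouse receptor for TRAIL, were not tested. Tnfrsf10b had 2.82 and 2.94 against 3.78 and 3.61, groups that did not overlap.

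Aen, a nuclease that promotes apoptosis, rose by 0.82 (SE 0.12, adjusted p = 0.00698) from 7.36 and 7.11 to 8.03 and 8.07. Ei24, a membrane protein of the endoplasmic reticulum, rose by 0.77 (SE 0.10, adjusted p = 0.00430) from 7.80 and 7.81 to 8.58 and 8.57. Both lay clearly above the WT arrays, although without WT 2 neither passed (adjusted p = 0.0625 and 0.0544), nor did Aen without Yy1_KO 1 (0.0573) or Yy1_KO 2 (0.0706). Apaf1, the scaffold of the apoptosome, had 5.80 and 6.43 in WT and 5.61 and 5.43 in Yy1_KO (change -0.60, SE 0.22, adjusted p = 0.0862). Perp, a membrane protein of desmosomes that p53 induces in dying cells, had 7.0 and 7.32 against 6.86 and 6.39 (change -0.54, SE 0.20, adjusted p = 0.0882). These 2 had both Yy1_KO arrays below both WT arrays and did not pass, but a fit that lets the variance follow intensity called Perp lower, and one without WT 1 called Apaf1 lower.

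Where a p53 target gene had several tested probe sets, these nearly always pointed the same way. Of 16 such genes, 15 had probe sets of one sign, the exception being Fbxw7, and 14 had the same call on all, the exceptions being Ddb2 and Sulf2. The dimmer tested probe sets of Abhd4 and Aen lay under the filter on both WT arrays. They could pass only as rises, so their agreement adds nothing. The dimmer tested probe set of Psrc1 reached 4 in WT only on WT 1, so its test too needed a Yy1_KO array. Sizes differed more than signs, as for Mdm2 (0.87 to 1.65). A second probe set of Plk2 and 2 further ones of Mdm4, all near the lowest value on every array, changed by less than 0.1, whereas one of Polk that lay near it in WT differed by 1.29 without a test.

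**Figure D3:**
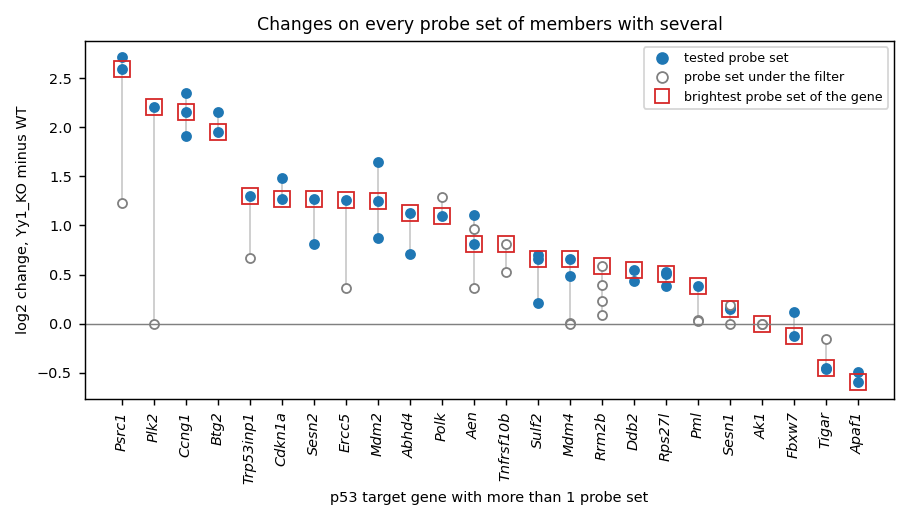
Log2 change in Yy1_KO against WT (y axis) on every probe set of the p53 target genes that have more than 1 (x axis). Filled points were tested, open grey points lay under the filter, and red squares mark the brightest probe set of each gene; among tested probe sets, only those of Fbxw7 lie on both sides of 0.

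The authors' deposited table, which keeps only large changes, lists 24 probe sets of 16 p53 target genes, all with a higher value in Yy1_KO. Of the probe sets of the array, 2.24% are listed there as higher. The log2 changes of the 24 in the authors' deposited table run from 1.09 for Polk to 2.83 for Phlda3. One probe set of Polk and one of Psrc1 that stayed under the filter used here are listed there, at 1.29 (adjusted p = 0.000563) and 1.23 (adjusted p = 0.00566). Both comparisons rest on the same 4 arrays.

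Further genes of the pathway were taken in 3 lists, of other targets, of regulators and of cell cycle genes. Of 18 tested further p53 targets, 8 rose and 2 fell, with a median change of 0.06, where 17.9% and 21.7% of all tested genes rose and fell. Cpt1c, Dram1 and Bcl6 were under the filter on both WT arrays and could pass only as rises, and without them 5 of 15 rose and the median was -0.12. Cpt1c, a brain-type relative of the carnitine palmitoyltransferases, had 2.48 and 2.38 in WT and 4.59 and 5.0 in Yy1_KO (log2 2.36, SE 0.16, adjusted p = 0.00105). Dram1, a lysosomal protein of autophagy, had 3.24 and 3.06 against 5.32 and 4.44 (log2 1.73, SE 0.29, adjusted p = 0.00934). Pmaip1, the death inducer Noxa of the Bcl2 family, rose by 1.10 (SE 0.14, adjusted p = 0.00418) from 6.24 and 6.31 to 7.22 and 7.54. Dram1 and Pmaip1 did not pass without WT 1 or without WT 2. Cd82, a tetraspanin that curbs cell motility, fell by 1.10 (SE 0.11, adjusted p = 0.00215).

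Regulators that act on p53 from above gave 1 rise and 4 falls among 18 tested, with a median of -0.11, a share of falls close to the 21.7% over all tested genes. Prkdc, the DNA-dependent protein kinase, had 4.27 and 4.23 in WT and 3.47 and 3.32 in Yy1_KO (change -0.85, SE 0.11, adjusted p = 0.00435). It lay under the filter in Yy1_KO and could pass only as a fall, and it did not pass without WT 2. Hipk2, a kinase that phosphorylates p53 for the death response, fell by 0.64 (SE 0.11, adjusted p = 0.00953), although its other tested probe set had a change of -0.32 that did not pass (adjusted p = 0.0760). Trp53bp2, which directs p53 to death genes, fell by 0.45 (SE 0.11, adjusted p = 0.0248). Trim28, a corepressor that works with Mdm2, rose by 0.49 (SE 0.14, adjusted p = 0.0463). The last 3 did not pass without WT 1, without WT 2 or without Yy1_KO 2. The damage kinase genes Atm, Atr, Chek1 and Chek2, named after their values were seen, did not pass, with changes between -0.25 and 0.26.

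Cell cycle genes that p53 is known to lower through p21 and the DREAM repressor complex showed no common fall. Of 19 tested, 2 rose, 1 fell and 16 did not pass, with a median of 0.13 and a range of -0.35 to 0.47. Over all tested genes, 17.9% rose and 21.7% fell. The spindle genes Kif23 (0.47, SE 0.11, adjusted p = 0.0283) and Cdc20 (0.45, SE 0.10, adjusted p = 0.0212) rose, and the replication helicase gene Mcm5 (-0.35, SE 0.11, adjusted p = 0.04995) fell. All 3 lost their call in every fit that left out an array, and Cdc20 did not pass on its dimmest tested probe set (0.28, adjusted p = 0.175).

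**Figure D4:**
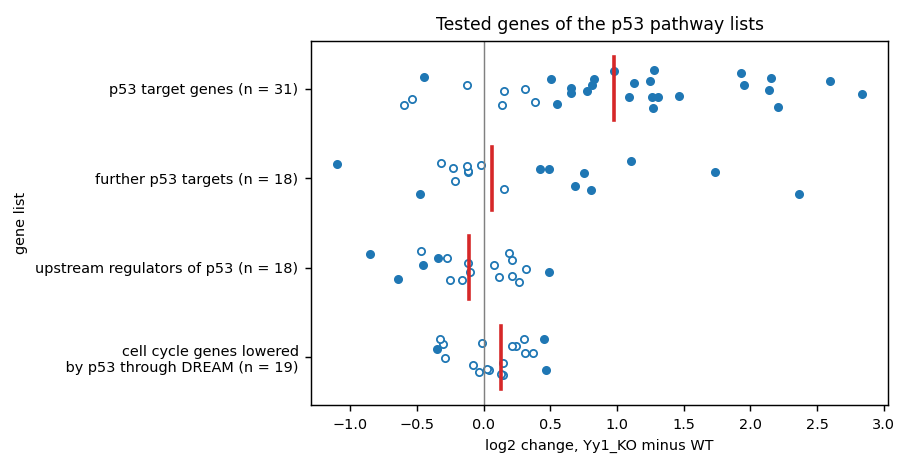
Log2 change in Yy1_KO against WT (x axis) of each tested gene of 4 lists (rows; filled points, adjusted p under 0.05; open points, not passed), with the list median as a red bar. Medians are 0.98 for the p53 target genes, 0.06 for further p53 targets, -0.11 for upstream regulators and 0.13 for cell cycle genes; points are spread vertically for visibility only.

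The rises stood beside the rise of genes of other cells on the same arrays, with a median log2 change of 2.13 over mesenchyme markers and 3.22 over smooth muscle markers. The part of these cells in the changes of p53 target genes between genotypes was not tested. Markers also differed between the 2 WT arrays. The median of WT 1 minus WT 2 was 0.58 over smooth muscle markers, with 6 of 7 higher in WT 1, and 0.20 over mesenchyme markers, with 8 of 10 higher. It was 0 over leukocyte markers, 0.02 over those of pancreas and liver, -0.07 over general epithelium, -0.18 over erythroid cells and -0.44 over enterocytes. These WT medians covered every marker with a probe set, including those at the lowest value on all arrays, such as Cd14 among the leukocyte markers. Those of the p53 target genes covered tested genes only. The 31 tested p53 target genes had a median difference of -0.13, with 8 higher in WT 1, and the 23 that rose in Yy1_KO one of -0.07, with 7 higher. Between the Yy1_KO arrays the median difference of these 23 was -0.05.

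**Figure D5:**
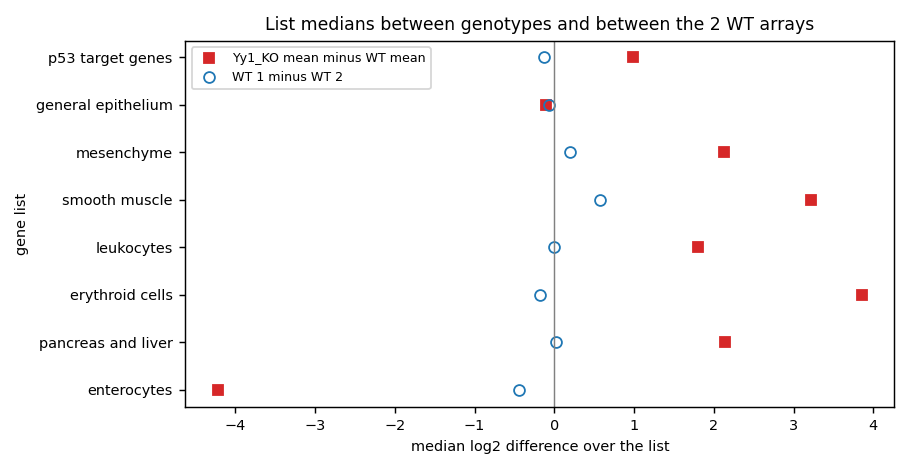
Median log2 difference (x axis) over the p53 target genes and over each list of cell type markers with tested genes (rows), as the Yy1_KO mean minus the WT mean of tested genes (red squares) and as WT 1 minus WT 2 (open circles). The open circles cover the tested p53 target genes but every marker with a probe set, tested or not. Between genotypes the p53 target genes (0.98), mesenchyme (2.13) and smooth muscle (3.22) are all above 0, and between the WT arrays the p53 target genes are at -0.13, within a range of the marker lists from -0.44 for enterocytes to 0.58 for smooth muscle.

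The arrays also differed in a measure of RNA quality, the 3′ minus 5′ log2 signal of control probe sets. For Gapdh it was 1.31 and 1.37 in WT and 1.60 and 1.65 in Yy1_KO, a difference of 0.29, and for actin the genotypes differed by 0.04. Its part in the changes of p53 target genes was not tested.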

How the data were processed

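Total RNA of 4 samples was hybridised to Affymetrix Mouse430_2 arrays. The deposited value table holds log2 values after GCRMA, per the submitters' processing notes, which also name limma. The authors' deposited table gives, for probe sets with large changes, log2 changes, p-values with and without adjustment, and a log-odds score. It was used only where named. CEL intensities were not used.

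Of 45101 probe sets, 64 are controls and 34945 carry a single gene symbol in the platform annotation. Those at log2 4 or more on at least 2 of 4 arrays (16887) were fitted with limma 3.58.1 in R 4.3.3 (lmFit, eBayes, genotype as the only term), with Benjamini-Hochberg adjustment over all of them and a threshold of 0.05. The fit was tested on simulated data. Each gene is represented by its tested probe set of highest mean. Beside the p53 target genes, the genes named are Yy1 and, of each pathway list, up to 4 with the largest change among those past the threshold whose groups do not overlap. On each array 35.6% to 36.4% of probe sets reached log2 4. Replicates correlated at 0.989 to 0.990 and genotypes at 0.905 to 0.925. With 2 arrays per group, an exact permutation test of 1 gene cannot go below p = 0.333, so calls rest on limma's variance shared across probe sets.

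The p53 target genes and all lists were chosen with earlier results of these data known. Pairing of replicate numbers was checked. The controls were littermates of the knockouts, but the labels do not say which arrays share a litter. The 2 same-numbered pairs' deviations correlated at -0.31, so same-numbered arrays did not vary together. That value does not settle whether opposite-numbered arrays were paired. The numbers were not used as a block in the main fit, and both pairings were run as alternatives. Promoter sequences are from RefSeq (GRCm38.p6). The Yy1 motif was chosen after the data were seen.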

Additional observations from a re-analysis of the deposited data

How the results depend on the processing

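The number of p53 target genes that rose (23) depended on the filter, the array set and the fold required. The number of rises was 1 with no filter on low values. There 25 of 38 p53 target genes and 4386 of 18193 genes had an unadjusted limma p under 0.05, in either direction. With no filter and a variance trend with intensity, 26 p53 target genes and 4769 genes in all had such a p. In that setting limma called 0 genes, so the number of rises was 0. It was 15 at 2-fold or more, 13 to 16 with 1 array left out, and 18 to 25 in the other settings run. The number that fell (1, Tigar) was 0 with no filter, with no filter and the trend, with a filter at log2 6, with an offset of 16, at an adjusted p under 0.01, at 2-fold, against a minimum fold of 1.2 and with the replicate block, and 0 to 1 with an array left out, where the 1 was Apaf1 and not Tigar. The count of falls was 2 with the trend and robust variance and 3 with the crossed replicate block.

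The median change (0.98) was 0.79 with no filter, 1.13 with a filter at log2 6, 0.90 with a filter on the mean, 0.82 with an interquartile range filter, 0.75 with the offset, 0.82 on the dimmest tested probe set of each gene, and 0.88 to 1.0 with an array left out. Only Fbxw7 turned sign, to 0.12 on its dimmest tested probe set and to 0.03 without Yy1_KO 2, within a range of -0.282 to 0.0277 with an array left out. The filter on the mean, the crossed block and the unfiltered trend were added after seeing the data. The replicate block left 23 rises among the p53 target genes and lowered the counts over all genes to 1280 rises and 1587 falls. The crossed block gave 1591 and 1924. With 1 array left out, 353 to 827 genes rose and 444 to 896 fell. Scaling to equal array medians or quantiles moved the median of all genes to -0.08 or 0.02. Dim genes near the lowest value of the arrays, among them Fas, Plk3 and Eda2r in WT, limit what can be seen, and 2 arrays per group limit the precision.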
